A study of Mus musculus with 568 samples.

Results

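Among single cells sorted from reconstituted ovaries, 61 of the 462 wells that passed the quality filters held little or no *Dazl*, out of 518 rOvary wells and 552 wells in all. A well belonged to this set when ln(1 + *Dazl* reads per 10000 reads of the well) was at or below 1, which corresponds to a level of 172 CPM, reads scaled to 1000000 per well. The other 401 wells lay above that limit. *Dazl* reads chose the wells, so every contrast between the low wells and the wells above the limit is given as a description, without a test.

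The cells came from XRep, a female mouse ESC line of the hybrid strain 129S1/SvImJ and CAST/EiJ. Its mus X chromosome carries a GFP reporter and a *Tsix* truncation that directs X-inactivation to it, its cas X chromosome carries tdTomato, and doxycycline induces the germ cell factors *Prdm14*, *Prdm1* (*Blimp1*) and *Tfap2c*. PGCLCs of day 5 were sorted by XGFP and cultured as aggregates for 6 days with somatic cells of female E13.5 gonads from the CD1/ICR strain, which per the methods were depleted of SSEA1 and CD31 and included mesonephros. XTomato+ cells were then sorted, 1 per well: XGFP+ constitutive wells from XGFP+ PGCLCs, and XGFPhigh, XGFPintermediate and XGFPlow wells from XGFP- PGCLCs. All 4 populations therefore share the line, its transgenes, the induction and the culture, and the labels call every rOvary well a germ cell. They name no aggregate or culture, so each population counts as 1 sample, and intervals below are exact Clopper-Pearson 95% intervals that cover counting error only.

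DAZL is an RNA-binding protein of germ cells, needed for gonadal germ cells to become competent for gametogenesis and to answer the signals that start meiosis. It is little expressed when primordial germ cells are first specified and comes on as they settle in the gonad. Pluripotency factors such as NANOG are kept in early germ cells and decline as the meiotic genes, among them *Stra8*, come on. *Dazl* (ENSMUSG00000010592) lies on chromosome 17 at chr17:50279395-50293636 on the minus strand of mm10 in GENCODE vM21.

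*Dazl*-low wells were most frequent in XGFPlow. They numbered 30 there, 24.8% of the wells kept (17.4 to 33.5%), 12 in XGFP+ constitutive (13.6%, 7.25 to 22.6%), 12 in XGFPintermediate (9.38%, 4.94 to 15.8%) and 7 in XGFPhigh (5.60%, 2.28 to 11.2%). The interval of XGFPlow overlaps that of XGFP+ constitutive but not those of XGFPintermediate and XGFPhigh, and the intervals of XGFP+ constitutive, XGFPintermediate and XGFPhigh overlap each other. In sequencing lane 3, which held most wells of the 3 populations from XGFP- PGCLCs, the shares were 25.5% in XGFPlow (27 wells), 8.04% in XGFPintermediate (9 wells) and 6.31% in XGFPhigh (7 wells). In lane 2 the counts were 3 of 15, 3 of 16 and 0 of 14 (up to 23.2%), too few to order them. All XGFP+ constitutive wells were in lane 2, so this population and its lane cannot be told apart.

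The low wells were sequenced about as deeply as the others. They held 114594 to 1226154 reads (median 601163), against 118327 to 1211978 (median 599087) above the limit, and their median share of mitochondrial reads was 2.30% against 2.60%. XGFP+ constitutive wells were shallower, with medians of 320241 reads in low wells and 358390 in wells above. The 10 empty wells held at most 242 reads and 0 *Dazl* reads.

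The *Dazl* values were arranged differently in the 4 populations. No *Dazl* read at all was counted in 38 of the 61 wells: 22 of 30 in XGFPlow, 10 of 12 in XGFPintermediate, 4 of 12 in XGFP+ constitutive and 2 of 7 in XGFPhigh. In XGFPlow and XGFPintermediate, the lowest wells above the limit stood at 1.52 and 1.94 on the ln scale, and 0 wells lay between 1 and 1.5. In XGFPhigh 11 wells and in XGFP+ constitutive 3 wells lay between 1 and 1.5, so that the values there ran on across the limit. The 4 wells just inside the limit had values of 0.77, 0.88, 0.96 and 0.98, and the 4 just outside 1.02, 1.03, 1.04 and 1.05. As a reference, all 24 ESC wells of the series were below the limit, with at most 0.53.

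**Figure D1:**
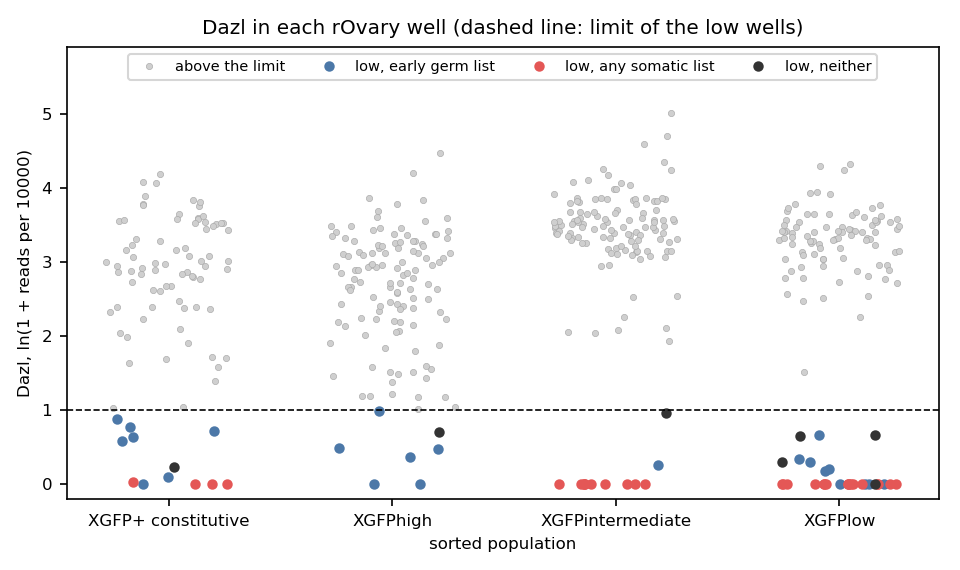
Each point is 1 rOvary well that passed the filters, placed by its sorted population and by ln(1 + *Dazl* reads per 10000), with random sideways jitter, and the dashed line is the limit of 1. Below the line, wells with a somatic marker list sit at 0 except for 1 well with 1 read, while *Dazl* reads were counted in 16 of the 23 early germ wells and 6 of the 7 with neither list.

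Marker lists split the low wells into wells with somatic transcripts and wells with an early germ cell profile. A well was given the somatic list (of 7) with the largest summed level if that sum reached 1000 CPM, and otherwise the early germ cell list if its sum reached 1000 CPM. By this rule 31 of the 61 wells (50.8%) carried a somatic list, 23 (37.7%) the early germ cell list and 7 (11.5%) neither. The label of germ cell thus went against the transcripts of 31 wells. Of the 401 wells above the limit, 1 carried a somatic list (simple epithelium, 1765 CPM), 278 the early germ cell list and the rest neither. This depends on the use of a sum. With a share of 0.5 of the listed genes detected as the rule, 16 wells above and 8 low wells met the neural list. For simple epithelium these were 3 and 8, and 0 wells above met the stromal, endothelium, gonadal somatic or blood list. The endoderm list was the leading list of 0 wells. The lists cut a range and not a type: 6 low wells had their largest somatic sum within 0.5 and 2 times the limit, and 11 had such an early germ cell sum. The listed genes cut the classes, so their high levels within a class follow in part from the rule. The same holds for their low levels outside it, and both are given below as a description.

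The somatic-list wells were unevenly spread over the sorted populations. They were 17 XGFPlow wells (14.05% of those kept, 8.40 to 21.5%), 10 XGFPintermediate wells (7.81%, 3.81 to 13.9%), 4 XGFP+ constitutive wells (4.55%, 1.25 to 11.2%) and 0 of 125 XGFPhigh wells, which allows a share of up to 2.40% by a floor of 3 wells and 2.91% by the exact interval. The intervals of XGFPlow, XGFPintermediate and XGFP+ constitutive overlap each other, and that of XGFPhigh overlaps only that of XGFP+ constitutive. The kind of list differed as well. The 10 wells with the neural list were all XGFPlow (8.26%, 4.03 to 14.7%). Their absence elsewhere allows up to 4.11% in XGFP+ constitutive, 2.91% in XGFPhigh and 2.84% in XGFPintermediate. The 4 wells with the endothelium list were all XGFPintermediate. The 8 with the mesenchyme and stroma list were 5 XGFPintermediate, 2 XGFPlow and 1 XGFP+ constitutive. The simple epithelium list was carried by 4 XGFPlow and 3 XGFP+ constitutive wells, the gonadal somatic list by 1 XGFPlow well and the blood list by 1 XGFPintermediate well. These counts keep only the leading list of a well. By the sum alone, 4 low wells reached 1000 CPM for the gonadal somatic list, 10 for mesenchyme and stroma and 8 for simple epithelium. Early germ wells were 9 XGFPlow, 7 XGFP+ constitutive, 6 XGFPhigh and 1 XGFPintermediate wells.

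**Figure D2:**
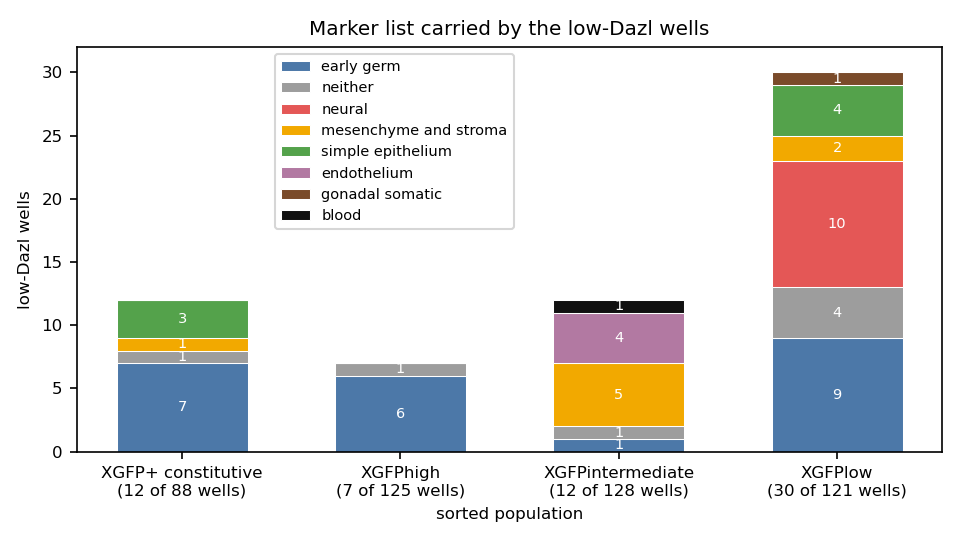
Bars stack the number of low wells of each sorted population by the marker list they carried, and the axis labels give the low wells out of all wells that passed the filters. The 10 neural-list wells all stand in XGFPlow and the 4 endothelium-list wells in XGFPintermediate, and XGFPhigh holds 6 early germ wells and 1 with neither list.

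The markers named for these cells, *Col1a2* and *Col3a1* (fibrillar collagens), *Wt1* (a transcription factor of gonadal supporting cells and mesothelium) and *Krt18* (a keratin of simple epithelia), covered only a minority of them. At 20 CPM or more, *Col1a2* was found in 9, *Col3a1* in 9, *Wt1* in 8 and *Krt18* in 18 of the 61 wells. Above the limit the counts were 5, 1, 5 and 79 of 401 wells, so *Krt18* at this level was no mark of low wells alone. Its highest level there was 644 CPM, while in the 7 simple epithelium wells it lay between 367 and 1921 CPM. All 4 were at 0 in each of the 10 neural-list wells.

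The neural-list wells shared a profile of genes of the neuronal cytoskeleton and growth cone. *Tubb3*, a neuron-enriched tubulin, ran from 812 to 4312 CPM (median 2301) in them, and its highest value above the limit was 461 CPM. *Tuba1a* (4426 to 20551 CPM, median 12469), *Nnat* (408 to 5620 CPM, median 3177), *Rtn1* (145 to 6021 CPM) and *Dpysl3* (206 to 3464 CPM), which acts in growth cones, were above 20 CPM in 10 of 10 wells. For *Tuba1a* this held in 341 of 401 wells above the limit, with 1233 CPM at most, and in all 31 somatic-list wells. *Stmn2*, a regulator of microtubules in growing axons, reached 20 CPM in 8 of 10 neural-list wells and in 93 of 401 wells above the limit. Cell cycle transcripts were scarce in them, with a sum over 12 genes of 0 to 305 CPM (median 119.9), against a median of 4808 CPM above the limit. Only 3 of the 10 wells had 3 or more of the 5 listed neural genes in the count table, so the name of the list is kept as a label and no cell type is given.

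Wells with the mesenchyme and stroma list held fibroblast-type matrix transcripts. *Dcn*, a small proteoglycan of connective tissue, was at 192 to 13907 CPM (median 8043) in 8 of 8 wells and reached 27.7 CPM at most above the limit. *Col3a1* had a median of 4195 CPM and *Col1a2* of 2038 CPM, each with 7 of 8 wells at 20 CPM or more. *Lum*, another matrix proteoglycan, was found in 6 of 8 wells with a median of 1463 CPM and in 0 of 401 wells above. *Wnt4*, a signal of the ovarian and mesonephric somatic lineage, was found in 6 of 8 wells, up to 1844 CPM. The exception was the XGFP+ constitutive well, in which *Col1a2* and *Col3a1* had 0 reads: it was named by *Dcn* (2578 CPM), held only 2 of the listed genes, and also had 701 CPM of *Krt18*. The other 7 wells had 7 to 15 of the 16 listed genes.

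The epithelial wells held keratins and immediate early genes, and the latter were raised under most other somatic lists too. *Krt8* was at 185 to 1405 CPM and *Cldn4*, a tight junction protein, at 50 to 1114 CPM in 7 of 7 wells, and *Krt19* was found in 6 of 7. Among the genes with the largest difference from the wells above the limit were *Fos* (191 to 7922 CPM, median 1030), *Jun* (102 to 1539 CPM) and *Id2*. Summed over 8 immediate early and heat shock genes the level was 924 to 18212 CPM (median 5021) in the epithelial wells. It was 0 to 746 CPM in the neural-list wells and had a median of 308 CPM above the limit. The sum was also raised in endothelial (median 2934 CPM) and stromal wells (median 1375 CPM), the gonadal somatic well (2049 CPM) and the blood well (1864 CPM). Of the epithelial wells, 1 from XGFP+ constitutive also passed the early germ cell list, through 1250 CPM of *Rhox6* and 2305 CPM of *Rhox9*. It had *Dppa3*, *Pou5f1*, *Sox2* and *Nanog* at 0 reads.

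The 4 endothelium-list wells shared most of the listed genes, with 6 or 7 of 8 found in each. *Cdh5*, the adhesion molecule of endothelial junctions, was at 260 to 725 CPM and reached 11.1 CPM at most above the limit. *Esam* (1116 to 2682 CPM), *Emcn* (539 to 1047 CPM), *Kdr* (214 to 466 CPM), which is the main VEGF receptor, and *Cldn5* (1080 to 2118 CPM) were found in 4 of 4. The single gonadal somatic well held 1799 CPM of *Amhr2*, the receptor of anti-Mullerian hormone, 229 CPM of *Foxl2*, a factor of granulosa cells, 242 CPM of *Gata4*, 52.6 CPM of *Nr5a1* and 1310 CPM of *Inha*. The single blood well had macrophage genes, with 31050 CPM of *Lyz2*, 4620 CPM of *C1qb* and 857 CPM of *Csf1r*, all of which had a median of 0 above the limit.

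**Figure D3:**
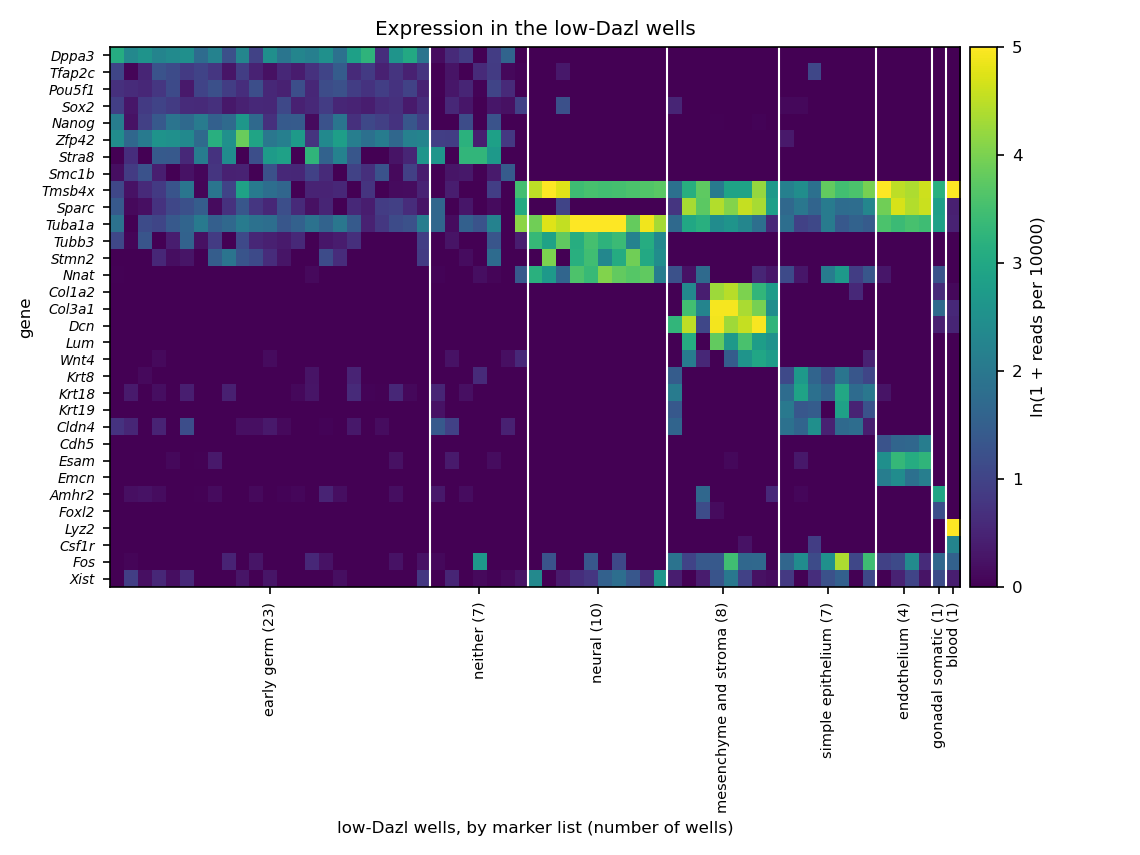
Columns are the 61 low wells ordered by marker list and then by population, rows are genes, and colour gives ln(1 + reads per 10000), with values over 5 drawn as 5. Germ cell genes fill the early germ block and are mostly dark in the somatic blocks, where *Tmsb4x* lies at 1.85 or more in all 31 wells and *Tuba1a* ranges from 0.48 in the blood well to 5.33 in a neural-list well. Each somatic block has its own set of genes, among them genes of the lists that cut the blocks.

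Most germ cell transcripts were nearly missing from the somatic-list wells. Of 13 early germ cell genes, 0 to 2 reached 20 CPM in neural-list and stromal wells and 0 to 3 in epithelial and endothelial wells, against 7 to 12 (median 11) in early germ wells and a median of 8 above the limit. *Rec8* was an exception, at 20 CPM or more in 5 of 10 neural-list wells (up to 496 CPM) and 4 of 7 epithelial wells, against 214 of 401 above. *Kit* reached this level in 3 of 4 endothelial wells and *Tex19.1* in 3 of 7 epithelial wells. By contrast, *Dppa3* (*Stella*), *Stra8* and *Smc1b* were below 20 CPM in all 31 somatic-list wells. The summed level of 11 imprinted genes went the other way. It had medians of 3310 CPM in neural-list, 5805 CPM in stromal, 2460 CPM in epithelial and 3348 CPM in endothelial wells. In early germ wells the median sum was 758 CPM and above the limit 491 CPM. The gonadal somatic well had 4817 CPM, and the blood well, with 234 CPM, was the exception. *Meg3* led in the neural-list wells (median 1491 CPM), *Peg3* (median 1027 CPM) and *Mest* (median 1381 CPM) were high in the stromal wells, and *Mest* in the endothelial wells (1943 to 6409 CPM). Not all members shared the rise. *Impact* had a median of 98.7 CPM above the limit, against 7.99 CPM in neural-list, 24.0 CPM in epithelial and 17.2 CPM in endothelial wells. *Peg3* was at 11.4 CPM in neural-list wells against 59.3 CPM above the limit.

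The X-linked allelic ratio is mus reads over mus plus cas reads per gene. The 17 of 31 somatic-list wells with a ratio lay below the median of the wells above the limit of the same sort, but within their range. Ratios were deposited for 38 of the 61 low wells (62.3%) and 379 of the 401 wells above the limit (94.5%), and the median over the X-linked genes of a well was used. In XGFPlow, all 10 somatic-list wells with a ratio stood at 0, meaning that at least 50% of the genes with a ratio had cas reads only, and so did the 3 XGFPintermediate wells, which were endothelial. The early germ wells of XGFPlow stood at 0.08, 0.21, 0.22, 0.26 and 0.26, within the range of the wells above (0 to 0.449, median 0.222), of which 5 of 72 were at 0. The CD1/ICR aggregation partners carry no cas X chromosome, and the origin of the wells at 0 was not tested.

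In XGFP+ constitutive, the 4 somatic-list wells stood at 0.315 to 0.370, below the 6 early germ wells (0.435 to 0.538) and below the median of the wells above (0.478, range 0.267 to 0.562). In XGFPhigh, the 6 early germ wells stood at 0.462 to 0.561, with a median of 0.505 against 0.470 above the limit. No ratio was given for 14 somatic-list wells (6 stromal, 5 of them XGFPintermediate, 4 neural-list, 1 endothelial, 1 epithelial, the gonadal somatic and the blood well), for 5 early germ wells and for 4 with neither list. The authors left out wells with few allelic reads or genes or with too small a share of either genotype, and which of these applied to a well is not recorded, so the origin of those wells was not tested either.

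**Figure D4:**
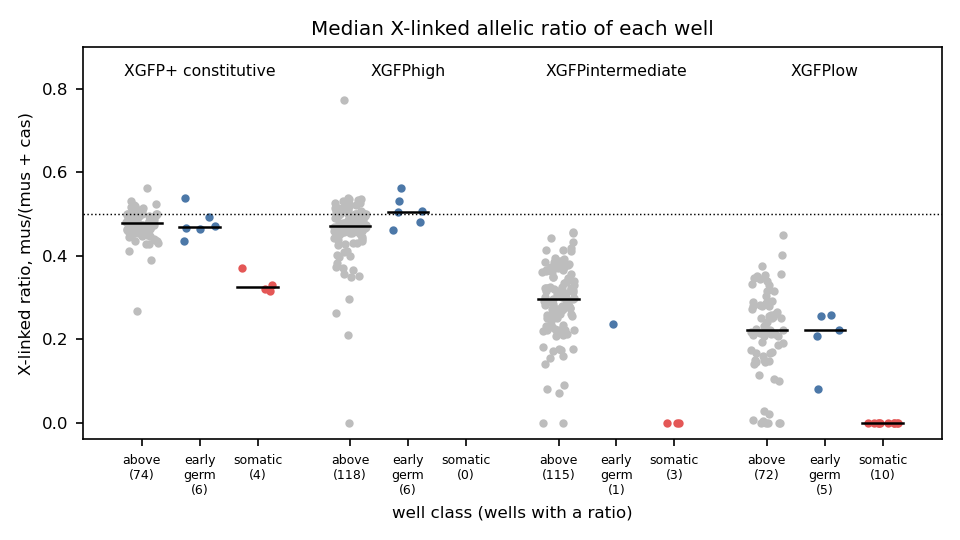
Each point is the median X-linked ratio of 1 well, grouped by population and by class (wells above the limit, low wells with the early germ cell list, low wells with a somatic list), with the number of wells that have a ratio in brackets, a bar at the median of groups of 4 or more and a dotted line at 0.5. Somatic-list wells lie at 0 in XGFPlow and XGFPintermediate and at 0.315 to 0.370 in XGFP+ constitutive.

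*Xist*, the RNA that coats the inactive X chromosome, was more often found in the somatic-list wells. At 20 CPM or more it was present in 25 of 31 of them (9 of 10 neural-list wells, median 206 CPM), in 9 of 23 early germ wells and in 65 of 401 wells above the limit. These counts pool the populations. In XGFPlow *Xist* was present in 14 of 17 somatic-list and 2 of 9 early germ wells. In XGFP+ constitutive it was present in 3 of 4 and 5 of 7, so the early germ wells there did not share the difference. *Hprt*, the gene that holds both reporters, was present in 14 of 31 somatic-list, 22 of 23 early germ and 364 of 401 wells above.

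The contrast of all low wells with the wells above joined both kinds of well. It was taken within each population as a difference of mean ln(1 + reads per 10000), and a gene was called when the difference had 1 sign in all 4 populations and averaged at least 0.5. Of 13605 genes 32 were called higher (0.235%) and 67 lower (0.492%) in low wells (0.728% in either direction), while the median difference over all genes was 0.00. With median-of-ratios size factors in place of totals, 80 were called higher and 45 lower, so the balance of the directions depends on the scaling. The count also rests on single populations: without XGFPintermediate 0.0662% of genes were called higher and 0.235% lower, without XGFPhigh 0.573% and 0.978%, and without XGFP+ constitutive 0.426% and 0.809%.

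Of the genes called higher, *Tmsb4x*, which binds actin monomers, had the largest difference, 1.36, with differences of 0.15 in XGFP+ constitutive, 0.24 in XGFPhigh, 2.94 in XGFPintermediate and 2.11 in XGFPlow. *Sparc*, a matrix glycoprotein, differed by 1.15 and *Tuba1a* by 0.99, and here too the 2 populations with most somatic-list wells had the largest differences. *Igfbp2* (0.89), *Tsc22d1* (0.79), *Tpi1* (0.76), a glycolytic enzyme, and *Ftl1* (0.75), the light chain of ferritin, followed, with *D0H4S114* (0.75), *Fabp5* (0.74), *Tagln2* (0.74), *Tpm4* (0.71) and *Anxa5* (0.69). Their medians by class show 2 patterns. *Tmsb4x* was at 3495 CPM in somatic-list wells, 80.2 CPM in early germ wells and 52.9 CPM above the limit, whereas *Igfbp2* was at 345, 209 and 40.9 CPM, and at 503 CPM in the wells with neither list.

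Of the genes called lower, *Stra8* had the largest difference after *Dazl* itself. It differed by -1.68, from -0.26 in XGFPhigh to -2.86 in XGFPintermediate, and was found in 0 of 31 somatic-list wells and 17 of 23 early germ wells. *Smc1b*, a cohesin subunit of meiosis, differed by -1.10, *Tuba3a* by -1.09, *Stk31* by -1.08 and *Dppa3* by -0.86. *Hmgb2* (-1.07), a chromatin protein of dividing cells, *Hells* (-0.96), a chromatin remodeller needed for DNA methylation, and *Hat1* (-0.85), a histone acetyltransferase, were lower as well, with *Fkbp6* (-0.93), *1700029F09Rik* (-0.92), *Fmr1nb* (-0.81) and *Slc25a31* (-0.79). Of 16 maturing and meiotic germ cell genes, 6 were called lower (*Stra8*, *Smc1b*, *Hormad1*, *Mael*, *Sycp1* and *Ddx4*) and 0 higher, with a list median of -0.45. Of 12 cell cycle genes, *Ccnb2* and *Mcm5* were called lower and 0 higher, with a list median of -0.39. Of 7 immediate early and heat shock genes *Fos* alone was called (0.53). Over all genes tested 0.235% were called higher and 0.492% lower, so 0 calls in a short list say little about that list. 0 genes were called in the naive pluripotency list (11 genes, median 0.06), the formative epiblast (6, 0.00), mesoderm (6, 0.00), endoderm (7, 0.05), gonadal somatic (8, 0.05), mesenchyme and stroma (13, 0.13), simple epithelium (7, 0.16), endothelium (6, 0.12) and neural lists (4, 0.13), the p53 targets (11, 0.05), the imprinted genes (11, 0.20), or for *Xist* and *Hprt*, and 0 blood genes passed the read filter.

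Without the 31 somatic-list wells the same contrast called 30 genes higher and 25 lower, and 26 genes were shared with the 99 called before. The early germ wells were therefore also set against the 278 wells above the limit that passed the same early germ cell limit, in the 3 populations with 5 or more such low wells (7 XGFP+ constitutive, 6 XGFPhigh and 9 XGFPlow). This comparison was chosen after the values were seen, and its classes were cut with 13 of the genes. It called 7 genes higher (0.0515%) and 4 lower (0.0294%) of 13605 (0.0809% in either direction), and 0.2499% higher and 0.0956% lower without XGFP+ constitutive. 0 of the 7 were among the 32 higher genes above, and all 4 lower genes, *Dazl* included, were among the 67. The first contrast had called 0.235% of all genes higher and 0.492% lower. Both contrasts share these low wells and the limit on *Dazl*, so the overlap is no separate support for the genes.

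Among the genes called higher in the early germ wells were *Zfp42* and *Nanog*, which is also on the list that cut the classes. *Zfp42* (*Rex1*), a marker of naive pluripotency, had means of 2.19 ± 0.38 against 1.84 ± 0.97 in XGFP+ constitutive, 2.77 ± 0.70 against 2.06 ± 0.88 in XGFPhigh and 2.02 ± 0.57 against 0.98 ± 0.65 in XGFPlow (ln scale, SD over wells). *Nanog* had 1.49 ± 0.68 against 1.03 ± 0.67, 1.62 ± 0.63 against 0.94 ± 0.68 and 1.01 ± 0.50 against 0.30 ± 0.34 in the same order. The wells of each pair overlap in all 3 populations, and the differences were within about 1 SD in XGFP+ constitutive and XGFPhigh and wider in XGFPlow. The other genes called higher were *Slc2a3* (0.76), the glucose transporter GLUT3, *Fabp3* (0.69), *Apoe* (0.65), *Sc4mol* (0.55), of sterol synthesis, and *Ckb* (0.51), a creatine kinase.

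Of 11 naive pluripotency genes all 11 lay above 0 (median 0.11) but *Zfp42* alone was called, and of 13 early germ cell genes 7 lay above 0 and *Nanog* alone was called. Over all genes tested, 6293 lay above 0 and 7288 below. *Pou5f1* was at medians of 98.4 CPM in XGFP+ constitutive, 118.5 CPM in XGFPhigh and 150 CPM in XGFPlow, against 78.6, 94.2 and 55.2 CPM above the limit. *Tfap2c*, a specifier of germ cell fate that is also on the doxycycline transgenes, was at 176, 67.6 and 110.8 CPM against 63.3, 67.5 and 33.9 CPM, so XGFPhigh did not share its difference. *Dppa3* was at 990, 707 and 1138 CPM against 1379, 1162 and 1607 CPM.

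All 16 maturing and meiotic genes lay below 0 in the early germ wells (median -0.11) and 0 of them were called. *Stra8* was at 93.9 CPM in XGFP+ constitutive, 633 CPM in XGFPhigh and 277 CPM in XGFPlow, against 623, 318 and 2056 CPM, so that XGFPhigh went the other way by its median. *Sycp1*, of the synaptonemal complex, reached 20 CPM in 2 of 7, 1 of 6 and 0 of 9 low wells, against 47.7%, 31.1% and 32.1% of the germ wells above. *Tex101*, a germ cell surface protein, did so in 1 of the 9 XGFPlow wells and in 0 of the 6 and 7 others. The genes called lower beside *Dazl* were *Tuba3a* (-0.64), *Maged1* (-0.55) and *Stk31* (-0.52), a germ cell kinase with a Tudor domain.

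**Figure D5:**
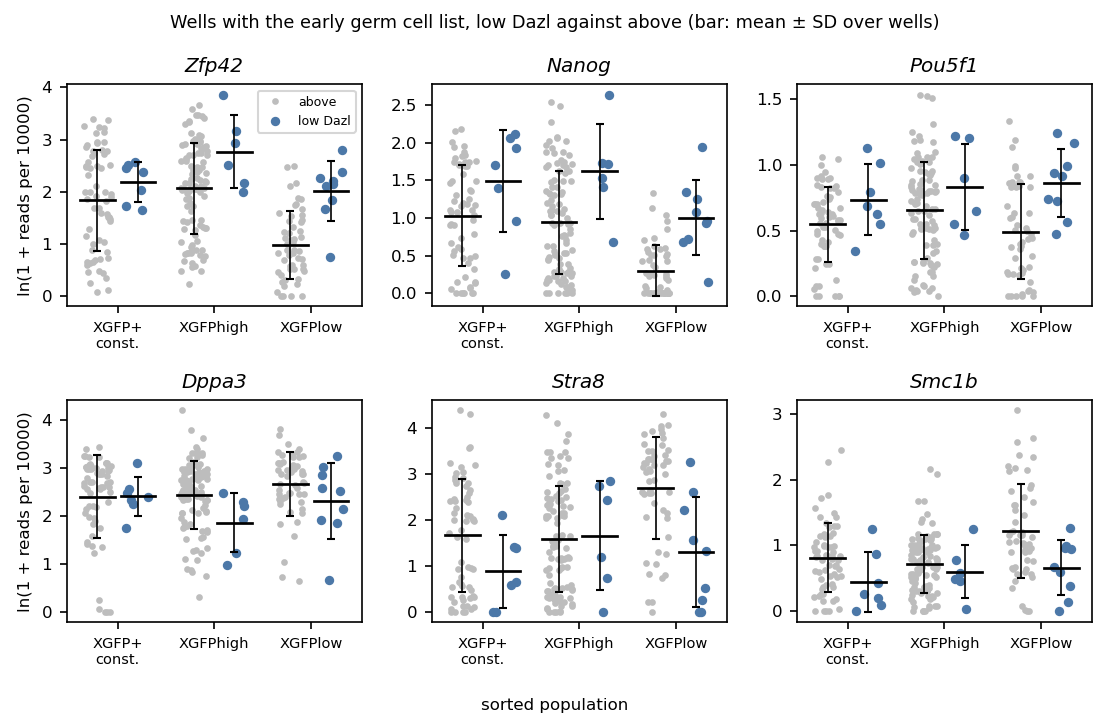
Panels show 6 genes in the wells with the early germ cell list, with ln(1 + reads per 10000) on the vertical axis, wells above the limit in grey, low wells in blue, and the mean with its SD over wells. *Zfp42* and *Nanog* have higher means in the low wells of all 3 populations, while the means of *Stra8* are 1.31 against 2.69 in XGFPlow and 1.66 against 1.59 in XGFPhigh.

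The early germ wells differed from the ESC wells of the series in some genes of the early germ cell list and not in others. That list selected the early germ wells and not the ESC wells, so higher levels of its genes follow in part from the rule. *Dppa3* had a median of 889 CPM in early germ wells (93.99 to 2493 CPM) and of 51.88 CPM in ESC wells (0 to 500 CPM). *Nanos3*, which protects germ cells from apoptosis, was found in 14 of 23 wells against 1 of 24, and *Rhox9* in 18 of 23 against 3 of 24. *Morc1* went the other way, found in 16 of 23 early germ wells and 24 of 24 ESC wells. *Pou5f1* was found in 23 of 23 and 24 of 24, and *Nanog* in 22 of 23 and 24 of 24. The naive pluripotency sum ran from 215 to 6515 CPM (median 1511) in early germ wells and from 1755 to 3971 CPM (median 2988) in ESC wells. *Klf4*, *Tbx3* and *Fgf4*, found at 20 CPM in 23, 20 and 24 of the 24 ESC wells, were found in 3, 2 and 4 of the 23 early germ wells. ESC wells were sequenced on another flow cell and at greater depth, so batch and cell type cannot be told apart here.

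The 7 wells with neither list were mixed. *Stra8* was found in 4 of them (up to 2588 CPM), and 5 of 7 had a sum of maturing and meiotic genes over 1000 CPM. *Igfbp2* and *Ftl1* were found in 7 of 7, and also in 250 and 399 of the 401 wells above the limit. The XGFPhigh well had high p53 target levels, with 2957 CPM of *Ccng1*, 2045 CPM of *Trp53inp1* and 1728 CPM of *Mdm2*, each above the highest well over the limit. *Trp53inp1* was higher still, at 3120 CPM, in another of the 7 wells. An XGFPlow well without *Dazl* reads and with a ratio of 0 held 9986 CPM of *Fabp7*, 1157 CPM of *Fgf15* and 545 CPM of *Pax3*, genes of neural progenitors and neural crest that reached 20 CPM in 1 of 401 wells each above the limit. Its neural list sum stayed under the limit, and these genes were named after their values were seen.

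Clustering of all 462 rOvary wells and the 24 ESC wells with *Dazl* left out gave 7 clusters. 1 cluster of 65 wells held 33 of the 61 low wells: all 31 somatic-list wells and 2 with neither list. It also held 32 wells above the limit, 15 of them XGFP+ constitutive and 13 XGFPhigh. Those 32 wells had a median *Dazl* level of 3.35, an early germ cell sum of 1452 CPM and 122.7 CPM of *Tmsb4x*, against 3.25, 1962 CPM and 51.3 CPM in the other wells above, and their largest somatic sum had a median of 123.1 CPM. The early germ wells fell into 3 clusters with wells above the limit, as 11, 7 and 5 wells, while the cluster led by *Stra8* (89 wells) held 1 low well and the one led by *Tex101* and *Sycp1* (56 wells) held 0.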

How the data were processed

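Full-length single-cell RNA-seq libraries of 552 wells were analysed. The authors aligned reads with STAR and deposited the count of reads per gene for 15718 genes, unscaled and without molecular identifiers, so reads are not independent molecules. X-linked values are a fraction per gene and well, mus over mus plus cas reads, which the authors computed after their own filters, for 219 genes and 440 wells. Their read depth is unknown. Bulk tables were not used here.

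Wells under 4000 genes, under 10000 reads or over 5% mt- reads were left out. Labels gave the groups, and each well is 1 sorted cell. Lanes 2 and 3 shared 144 index numbers, and 0 pairs of wells held identical counts. No doublet caller was run. The genes tested had 5 or more reads in 10 or more wells. Detection means 20 CPM. The 7 somatic lists and the other 11 lists were chosen, like the members, with earlier results of these data known, and 15 listed genes are not among the counted genes. Named genes are list members and the 12 called genes with the largest differences in each direction, mt- genes left out. Others were taken from the leading genes of a class after their values were seen. With 1 sample per population no test was possible. Clusters used Seurat 5.3.0 in R 4.3.3 (2000 variable genes, 20 components, resolution 0.8, ESC wells included), and other steps Python 3.11.15, pandas 2.3.3 and scipy 1.17.1. Labels give 5000 PGCLCs per rOvary and the methods another number. Alternatives were other *Dazl* limits, filters, lanes, scalings, size limits and marker limits.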

Additional observations from a re-analysis of the deposited data

Results flagged for a closer look

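Among 56 rOvary wells that failed the quality filters, 24 held 10000 or more reads and 3 of these were low in *Dazl*. They enter no comparison. 1 of them had a blood list sum of 57788 CPM and 1 a mesenchyme and stroma list sum of 8564 CPM, both above the level in the wells over the *Dazl* limit. The empty wells hold too few reads to give a level.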

How the results depend on the processing

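No paired analysis was possible because the labels give the populations no shared replicate numbers and each population is 1 sample. With a *Dazl* limit of 2 the share of low wells was 20.1% in all, 25% in XGFP+ constitutive and 21.6% in XGFPhigh, and with a limit of 1.5 it was 14.4% in XGFPhigh. Counting only wells without a *Dazl* read gave 8.23% in all, 4.55% in XGFP+ constitutive and 1.60% in XGFPhigh. Lane 2 alone gave 0% in XGFPhigh and 18.8% in XGFPintermediate. The log2 reading of the limit, other filters, lane 3 and thinning to 50000 reads stayed within the counting intervals. Genes called higher and lower in low wells, in percent of those tested, were 2.02 and 1.70 from pooled sums, 1.23 and 3.08 at a size limit of 0.25, 0.0147 and 0.0441 at 1, and 0.434 and 0.816 in lane 3 alone. The higher ones were 0.588 with median-of-ratios factors and 0.360 with a *Dazl* limit of 0.5. Without 1 population they were 0.426 and 0.809 (XGFP+ constitutive), 0.573 and 0.978 (XGFPhigh) and 0.0662 and 0.235 (XGFPintermediate). Without somatic-list wells the lower ones were 0.184. In germ wells they were 0.169 and 0.0956 over all 4 populations, 0.2499 and 0.0956 without XGFP+ constitutive, 0.0809 higher without XGFPhigh, and 0.0809 and 0.0588 at a germ list limit of 2000 CPM. The cause was not tested. Counts of somatic-list wells (26 to 32), ratios and the main cluster (32 or 33 low wells) moved little. Alternatives for germ wells, any somatic list and clusters were chosen after seeing the data.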
